A study of Homo sapiens with 8 samples.

Results

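The translation initiation and elongation factor genes described here are 63 of the 35394 rows of the count table. The choice was by symbol and gene type, with earlier results of these data known. They are the rows of that table with symbols of eIF1 to eIF6, eEF1 or eEF2, together with the release factors ETF1 and GSPT1, the poly(A)-binding proteins PABPC1 and PABPC4, and DENR and MCTS1. Of 159 rows that match these symbols, 3 antisense genes and 11 rows of eIF2 kinases, modifying enzymes and EEF1E1 were left out. Another 82 rows, not listed as protein-coding genes in RefSeq, were left out as pseudogenes. HCT116 is a human colorectal cancer line, labelled as epithelial with a RAS mutation. The PZH group consists of 4 libraries from cells given PZH, which is short for the herbal preparation Pien Tze Huang, for 24 h, and the DMSO group of 4 libraries from cells given DMSO as the control. The labels used here state no dose, the line is the only model, and no label says that libraries came from separate cultures, so p-values measure the spread between these libraries. The comparison asks how the mRNAs of the translation apparatus differ between PZH and DMSO cells.

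Protein synthesis is run by a set of protein factors that guide the ribosome through initiation, elongation and termination. Among the initiation factors, eIF2 carries the initiator tRNA and is recharged with GTP by eIF2B, eIF1 and eIF1A hold the small ribosomal subunit in a scanning state, eIF3 is the large scaffold on that subunit, and eIF4F binds the cap and unwinds the mRNA leader. In stressed cells phosphorylated eIF2 blocks eIF2B, and in cells short of nutrients 4E-binding proteins sequester the cap-binding protein eIF4E. Many mRNAs for elongation factors and ribosomal proteins begin with a tract of pyrimidines that ties their translation to the growth kinase mTORC1.

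Total counts were 18144117 to 18868057 in PZH libraries and 19288836 to 19917571 in DMSO libraries, and 3 counts correspond to 0.151 to 0.165 CPM (counts scaled to library size). In all, 39.3% of the 15006 genes tested were higher in PZH and 40.9% lower by edgeR's quasi-likelihood test at an adjusted p under 0.05. Without scaling factors the median log2 fold change over all genes moved by -0.26, so directions of small changes are relative to the scaling. The summed level of 8 markers of colon epithelium was 2509 to 3013 CPM in PZH libraries and 3496 to 3580 CPM in DMSO libraries, with the differentiation markers VIL1 and LGALS4 near 0. The markers did not move as one: KRT8 was at 983 ± 85.5 CPM in PZH and 1877 ± 18.2 CPM in DMSO (log2 fold change -0.93, adjusted p = 1.02e-12), and CDX2 was also lower (log2 fold change -0.54, adjusted p = 4.46e-05). CDH1 was higher, at 247 ± 2.97 CPM in PZH and 79.2 ± 4.41 CPM in DMSO (log2 fold change 1.64, adjusted p = 6.95e-19), as was EPCAM (log2 fold change 0.11, adjusted p = 0.0352), while KRT18 and KRT19 were not called. Markers of endothelium summed to 0.295 to 0.905 CPM in PZH and 1.00 to 1.44 CPM in DMSO, and those of immune cells to 0.113 to 1.27 CPM in PZH and 0.093 to 1.14 CPM in DMSO. Of 5 fibroblast markers, COL1A1 at 20.7 ± 1.65 CPM in PZH and 11.7 ± 1.13 CPM in DMSO (log2 fold change 0.82, adjusted p = 3.09e-08) made up nearly the whole sum, and COL1A2 had no count in any library. In RNA from a bulk culture, a change in every cell and a change in the mix of cells cannot be told apart, and the part of these marker levels in the results was not tested.

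As a family the factors moved in both directions, with more genes higher than lower. Of 63 members 61 passed the filter on low counts; 33 of them (54.1%) were higher in PZH, 21 (34.4%) were lower and 7 were not called, against the 39.3% and 40.9% of all genes tested. The 54 called members were 88.5% of those tested, where 80.3% of all genes tested were called. The median log2 fold change was 0.23, beside -0.024 over all genes tested. Without scaling factors 24 members were higher and 26 lower (median -0.033), where 29.8% and 51.1% of all genes tested were called. Changes were mostly small: 9 members (14.8%) were called and differed at least 2-fold, against 34.7% of all genes tested (15.8% higher and 18.9% lower), and the median size of the log2 fold change was 0.46 against 0.69. Those 9 were EIF1, EIF1B, EIF5, EIF2S2, EIF2A and EEF1A1, which rose, and EIF5A, EIF5AL1 and EIF4A3, which fell. PZH and DMSO values did not overlap for 53 of the 61 tested members (86.9%), against 75.0% of all genes tested.

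The untested members were EIF4E1B and EIF4EBP3, each with at most 8 counts in any library. EIF1AY, on the Y chromosome, is counted above but its level is not given. EEF1G, the third subunit gene of the eEF1B exchange complex, is not among the 63 members although its symbol fits the rule. EEF1G either had no row of that symbol or was among the 82 rows left out as pseudogenes, and it was not analysed here.

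**Figure D1:**
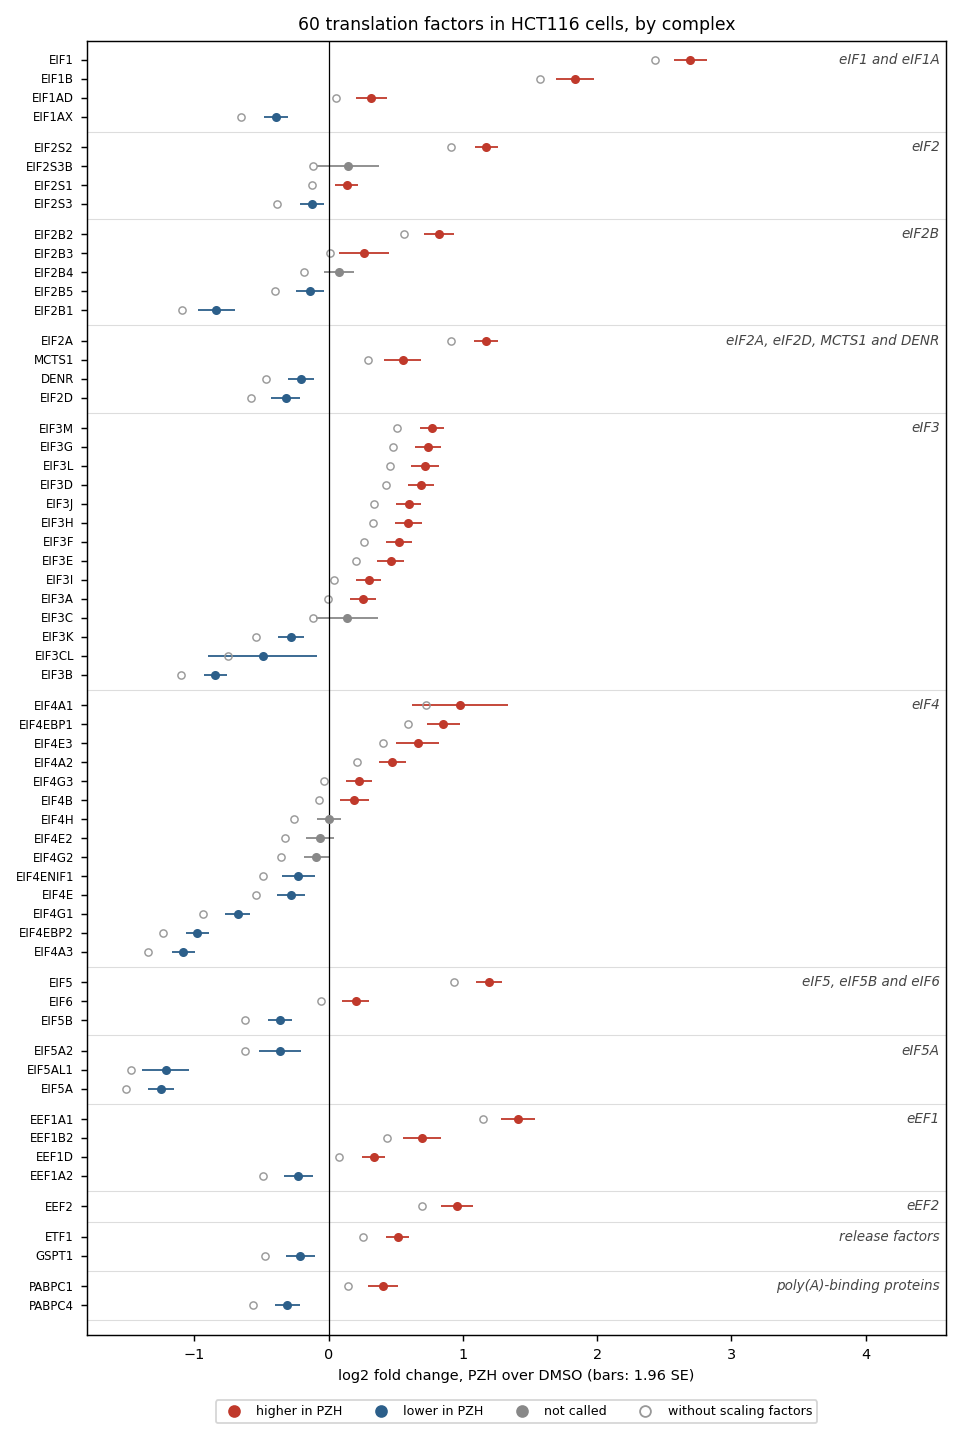
Log2 fold change of each tested member but EIF1AY (filled points, horizontal axis, PZH over DMSO, bars 1.96 standard errors each side), grouped by complex; open points are the same genes without scaling factors. EIF1 stands farthest to the right at 2.69 and EIF5A farthest to the left at -1.25; most eIF3 genes lie right of 0 and all 3 eIF5A genes lie left of it.

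Together the 63 genes held 5.32 ± 0.202% of all counts in PZH libraries and 3.45 ± 0.037% in DMSO libraries (mean ± SD, n = 4 each; a description, not tested). Most of that gap came from EEF1A1, the most abundant row of the whole table, at 2.75 ± 0.177% of counts in PZH and 1.24 ± 0.033% in DMSO. Members other than EEF1A1, EEF2 and PABPC1 held 1.68 ± 0.026% in PZH and 1.57 ± 0.009% in DMSO. The translocase EEF2 alone took 0.553 ± 0.032% in PZH and 0.342 ± 0.008% in DMSO.

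Among the factors that govern scanning and start codon choice, EIF1 and its paralogue EIF1B rose most. EIF1, which keeps the initiation complex open until the start codon is found, stood at 2552, 3048, 2923 and 3091 CPM in PZH libraries, against 428, 469.7, 448 and 448 CPM in DMSO libraries. All PZH values were above all DMSO values, and EIF1 was 6.47-fold higher (log2 fold change 2.69 ± 0.063 (SE), adjusted p = 2.3e-20), rank 320 among log2 fold changes of the 15006 genes. EIF1B, which encodes a near relative of eIF1, stood at 107, 122, 139 and 138 CPM in PZH libraries, against 32.1, 36.4, 37.3 and 36.3 CPM in DMSO libraries, 3.56-fold higher (log2 fold change 1.83 ± 0.072 (SE), adjusted p = 2e-16). In PZH cells the lowest value of both genes was that of replicate 1.

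The partner of eIF1 on the small subunit went the other way. EIF1AX, the X-linked gene of eIF1A, stood at 142, 130.4, 143 and 147 CPM in PZH libraries, against 187, 182, 186 and 182 CPM in DMSO libraries. The groups did not overlap, and EIF1AX was 1.31-fold lower (log2 fold change -0.39 ± 0.045 (SE), adjusted p = 5.36e-08). EIF1AD, which encodes a protein with an eIF1A-like domain, had log2 fold change 0.32, adjusted p = 3.87e-05; without scaling factors it was no longer called (0.057, adjusted p = 0.361).

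EIF5 rose with EIF1. It encodes the GTPase-activating protein that makes eIF2 hydrolyse its GTP at the start codon, and it acts against eIF1 in the stringency of that choice. It stood at 737, 721, 786 and 781 CPM in PZH libraries, against 332, 343, 324 and 321 CPM in DMSO libraries. No PZH value came near the DMSO range, and EIF5 was 2.29-fold higher (log2 fold change 1.20 ± 0.049 (SE), adjusted p = 3.94e-16). Inside each library, the log2 ratio of EIF5 to EIF1 counts was -1.79, -2.08, -1.90 and -1.99 in PZH libraries, against -0.37, -0.46, -0.47 and -0.48 in DMSO libraries. This ratio, which needs no scaling factor, was 2.82 times lower in PZH, so EIF1 rose more than EIF5 (difference -1.495 ± 0.067 on the log2 scale, standard error from the library spread; exact two-sided permutation p = 0.0286, the smallest that 70 assignments allow, adjusted p = 0.0308 over 14 ratios).

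The other factors of subunit joining moved less. EIF5B, the GTPase that joins the ribosomal subunits, stood at 199, 210.0, 199 and 206 CPM in PZH libraries, against 252, 257, 266 and 271 CPM in DMSO libraries, without overlap (log2 fold change -0.36 ± 0.044 (SE), adjusted p = 1.26e-07). EIF6, which keeps the large subunit from joining early, had log2 fold change 0.20, adjusted p = 0.00132, against -0.058, adjusted p = 0.299, without scaling factors.

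Of the 3 subunits of eIF2, which forms the ternary complex with initiator tRNA and GTP, the beta subunit gene changed at least 2-fold. EIF2S2, its gene, stood at 412, 402, 411 and 412 CPM in PZH libraries, against 181, 184, 175 and 185 CPM in DMSO libraries. It was 2.26-fold higher (log2 fold change 1.17 ± 0.044 (SE), adjusted p = 9.26e-17), and the libraries of each group lay close together. EIF2S1 encodes the alpha subunit, the one that stress kinases phosphorylate, and stood at 219, 232, 214 and 219 CPM in PZH libraries, against 205, 198, 201 and 199.6 CPM in DMSO libraries (log2 fold change 0.14 ± 0.044 (SE), adjusted p = 0.00662). That small rise was reversed without scaling factors (-0.12, adjusted p = 0.0103) and was not called after each library's GC trend was removed (0.023, adjusted p = 0.654). EIF2S3, for the GTP-binding gamma subunit, stood at 329, 344, 323 and 342 CPM in PZH libraries, against 358, 365, 370.4 and 364 CPM in DMSO libraries (log2 fold change -0.12 ± 0.045 (SE), adjusted p = 0.0151). Its call was lost with RLE factors (-0.10, adjusted p = 0.0633), without PZH replicate 1 (-0.095, adjusted p = 0.0557) and without PZH replicate 3 (-0.10, adjusted p = 0.0669). EIF2S3B, an intronless copy of EIF2S3 that can share its reads, was not called (0.14, adjusted p = 0.26). For EIF2S1 and EIF2S3 the groups did not overlap.

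eIF2B, the exchange factor that recharges eIF2 and is the target of inhibition by phosphorylated eIF2, did not move as one. EIF2B2, the beta subunit gene, stood at 58.1, 61.4, 65.5 and 63.5 CPM in PZH libraries, against 33.5, 35.7, 37.0 and 34.3 CPM in DMSO libraries. It rose 1.77-fold (log2 fold change 0.82 ± 0.057 (SE), adjusted p = 6.05e-12), with no overlap. EIF2B1, the alpha subunit gene, stood at 35.3, 26.3, 31.4 and 28.7 CPM in PZH libraries, against 54.3, 52.9, 54.0 and 56.1 CPM in DMSO libraries. It fell 1.78-fold (log2 fold change -0.84 ± 0.071 (SE), adjusted p = 2.37e-10), again with no overlap between groups. EIF2B3 (gamma) was called higher and the catalytic epsilon subunit gene EIF2B5 lower, but in both the groups overlapped. EIF2B3, at 0.27, adjusted p = 0.0141, lost its call without scaling factors (0.0094, adjusted p = 0.936) and without DMSO replicate 4 (0.21, adjusted p = 0.0668). EIF2B5, at -0.14, adjusted p = 0.0223, lost it with RLE factors (adjusted p = 0.0602), with DESeq2 (adjusted p = 0.0818) and with the GC trend removed (adjusted p = 0.096). It also lost it without PZH replicate 1 (-0.089, adjusted p = 0.133), PZH replicate 4 (-0.12, adjusted p = 0.0547) or DMSO replicate 4 (-0.11, adjusted p = 0.0816). EIF2B4 (delta) was not called, at 40.6 ± 1.52 CPM in PZH and 38.4 ± 0.880 CPM in DMSO (mean ± SD, n = 4 each). It was called higher with the GC trend removed (0.14, adjusted p = 0.0257), but with no scaling factors the call was in the other direction (-0.18, adjusted p = 0.0083).

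The factors that deliver or remove tRNA without eIF2 divided evenly. EIF2A, which can bring initiator tRNA to the ribosome on its own, stood at 311, 342, 329 and 339 CPM in PZH libraries, against 146, 151, 144 and 145 CPM in DMSO libraries. It was 2.25-fold higher in PZH (log2 fold change 1.17 ± 0.046 (SE), adjusted p = 1.95e-16). EIF2D, a single protein with functions close to those of the MCTS1 and DENR pair in recycling and reinitiation, stood at 43.4, 49.3, 48.9 and 49.0 CPM in PZH libraries, against 59.8, 61.3, 57.8 and 58.6 CPM in DMSO libraries. It fell 1.25-fold (log2 fold change -0.32 ± 0.055 (SE), adjusted p = 1.4e-05). MCTS1 and DENR form one complex, yet MCTS1 rose (0.55, adjusted p = 1.95e-07) and DENR fell (-0.21, adjusted p = 0.000478). Their log2 ratio was -0.67, -0.44, -0.48 and -0.86 in PZH libraries, against -1.35, -1.280, -1.302 and -1.51 in DMSO libraries, without overlap (difference 0.75 ± 0.11; exact permutation p = 0.0286, adjusted p = 0.0308).

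**Figure D2:**
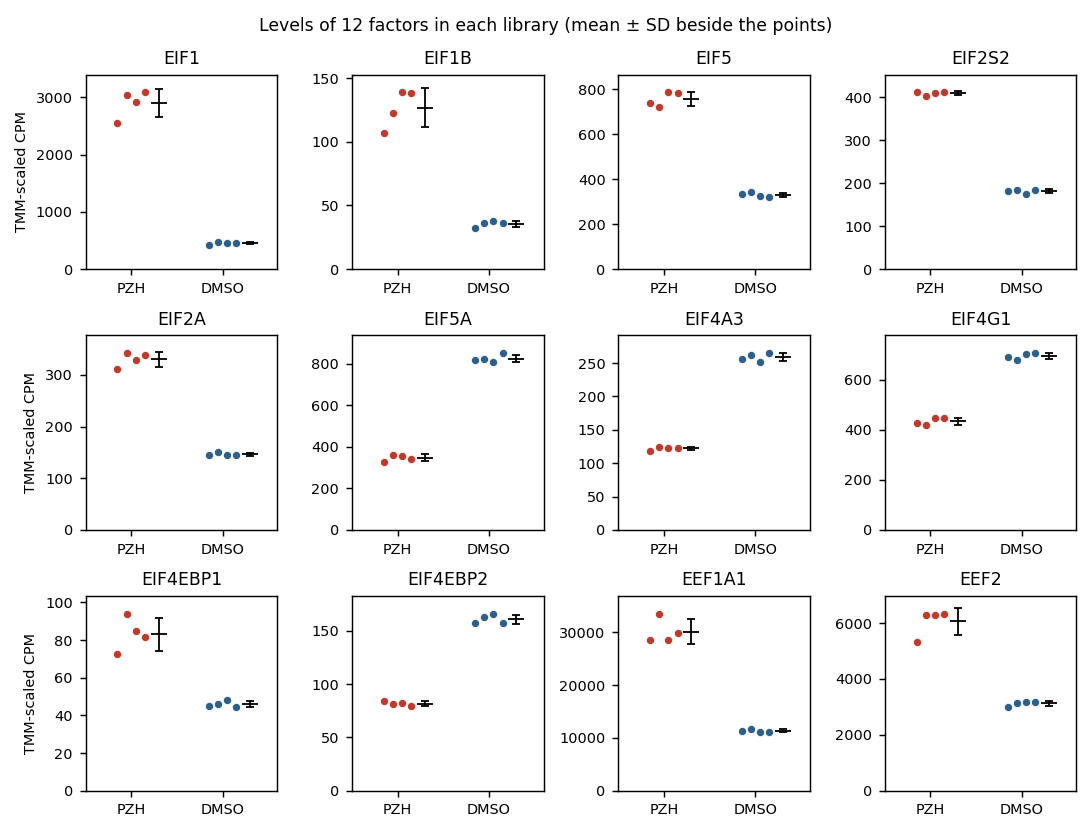
TMM-scaled CPM (vertical axes, from 0) of 12 factors in the 4 PZH libraries (left, red) and the 4 DMSO libraries (right, blue), with mean ± SD beside the points. In all panels the groups are apart; EIF1 averages 2904 CPM in PZH and 449 CPM in DMSO, and EIF5A 348 CPM in PZH and 826 CPM in DMSO.

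Of 14 tested eIF3 genes, 10 (71.4%) rose, 3 (21.4%) fell and EIF3C was not called, beside 39.3% higher and 40.9% lower among all genes tested. Their median log2 fold change was 0.49. Without scaling factors 8 rose and 3 fell, beside 29.8% and 51.1% of all genes tested. EIF3M, the highest, stood at 317, 341, 316 and 334 CPM in PZH libraries, against 190.4, 195, 190.5 and 191 CPM in DMSO libraries, and was 1.71-fold higher (log2 fold change 0.77 ± 0.045 (SE), adjusted p = 2.61e-13). EIF3G, EIF3L, EIF3D, EIF3J and EIF3H followed, with log2 fold changes of 0.74, 0.72, 0.69, 0.60 and 0.59, and EIF3F and EIF3E stood at 0.52 and 0.46. Among these, EIF3D encodes a subunit that can itself bind the cap, and EIF3J a loosely held subunit near the mRNA entry site. For EIF3L, 41.1% of exonic bases in GENCODE release 29 lie under same-strand exons of other genes, and how shared reads were counted is unknown.

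Of the subunit genes EIF3A, EIF3B, EIF3G and EIF3I, 3 were called higher and EIF3B alone fell. EIF3B, which with EIF3A scaffolds the complex, stood at 264, 264, 261 and 266 CPM in PZH libraries, against 467, 479, 475 and 472 CPM in DMSO libraries. It fell 1.79-fold (log2 fold change -0.84 ± 0.044 (SE), adjusted p = 3.23e-14), and all PZH values lay below all DMSO values. EIF3A itself had log2 fold change 0.26, adjusted p = 6.04e-05, against -0.0044, adjusted p = 0.925 without scaling factors. EIF3I, at 0.30, had 0.038, adjusted p = 0.399 under that setting, while EIF3G, at 0.74, had 0.48, adjusted p = 1.9e-09. The subunit gene EIF3K was lower (-0.28, adjusted p = 1.68e-05).

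EIF3C and EIF3CL are near-identical genes on chromosome 16 that can trade reads, and both values are uncertain. EIF3C stood at 52.3, 47.5, 68.5 and 45.4 CPM in PZH libraries, against 55.1, 39.2, 40.8 and 58.9 CPM in DMSO libraries, and EIF3CL at 7.18, 8.79, 7.36 and 7.20 CPM in PZH libraries, against 10.7, 17.1, 5.72 and 9.40 CPM in DMSO libraries, with overlap in both. EIF3CL was called lower (-0.49, adjusted p = 0.0352), a call lost without DMSO replicate 2, its highest library (-0.18, adjusted p = 0.346), with DESeq2 (adjusted p = 0.187) and with the GC trend removed (adjusted p = 0.118). It was also lost without PZH replicate 1, 3 or 4 or DMSO replicate 1, at adjusted p = 0.0812, 0.0785, 0.0762 and 0.0525.

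**Figure D3:**
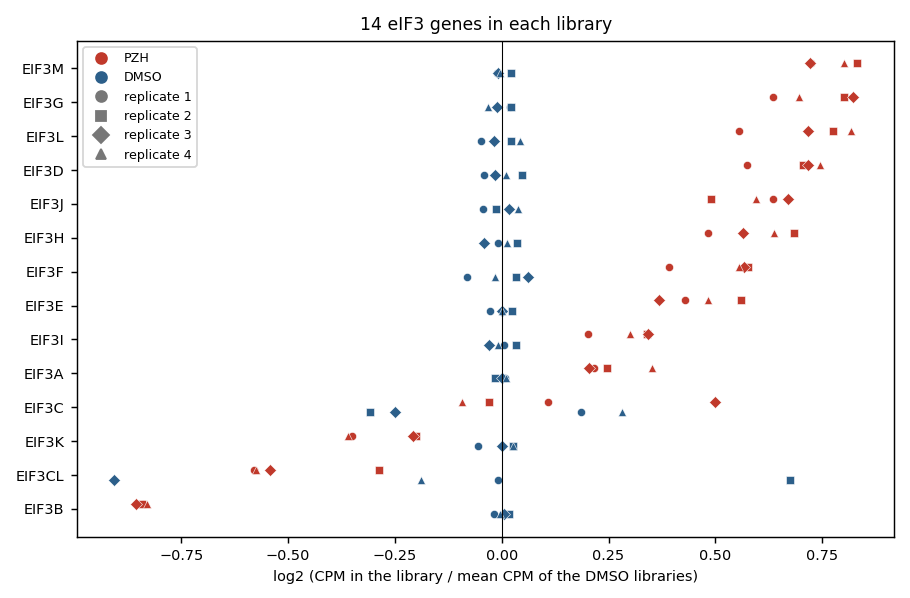
Each tested eIF3 gene in each library, as the log2 ratio of its CPM to the DMSO mean (horizontal axis; PZH red, DMSO blue, replicates by symbol). DMSO points lie near 0 except for EIF3C and EIF3CL; the PZH points of EIF3B lie near -0.84 and those of EIF3M near 0.77.

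In the cap-binding complex eIF4F, the genes of the large scaffold and of the cap-binding protein were lower. Of 14 tested eIF4 genes, helicases and 4E-binding proteins included, 6 (42.9%) were higher, 5 (35.7%) lower and 3 not called, which is near the 39.3% and 40.9% of all genes tested. Without scaling factors 4 were higher and 8 lower, beside 29.8% and 51.1% of all genes tested. EIF4G1, the main scaffold, stood at 425, 419, 445 and 447 CPM in PZH libraries, against 689, 679.6, 700.4 and 706 CPM in DMSO libraries. It was 1.598-fold lower (log2 fold change -0.68 ± 0.046 (SE), adjusted p = 5.8e-12), with a wide gap between the groups. EIF4E, the cap-binding protein, stood at 98.2, 113, 102 and 106 CPM in PZH libraries, against 133, 128, 115 and 131 CPM in DMSO libraries, also without overlap (log2 fold change -0.28 ± 0.053 (SE), adjusted p = 6.13e-05). Of the other scaffolds, EIF4G3 had log2 fold change 0.23, adjusted p = 0.000192 (-0.033, adjusted p = 0.563, without scaling factors). EIF4G2, also called DAP5, which lacks the eIF4E-binding site and serves cap-independent initiation, was not called (-0.092, adjusted p = 0.0774), though it was called lower without scaling factors (-0.35, adjusted p = 5.57e-08) and with the GC trend removed (-0.19, adjusted p = 0.0018).

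Inside the libraries the scaffolds shifted against one another. The log2 ratio of EIF4G2 to EIF4G1 was 1.43, 1.45, 1.35 and 1.41 in PZH libraries, against 0.84, 0.85, 0.81 and 0.81 in DMSO libraries, and was 1.499 times higher in PZH. That of EIF4G3 to EIF4G1 was 1.87 times higher (exact permutation p = 0.0286, adjusted p = 0.0308 for each). With the GC trend removed, the log2 fold change of EIF4G1 was -0.49, against -0.68 in the main fit. Those of EIF4G2 and EIF4G3 were then -0.19 and 0.20. The ratios were not recomputed under that setting. For the cap-binding paralogues EIF4E2 and EIF4E, the ratio overlapped between groups and did not pass the threshold (difference 0.21, exact permutation p = 0.0571, adjusted p = 0.0571).

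The 4E-binding proteins, which block eIF4E from binding eIF4G, parted. EIF4EBP1 stood at 72.6, 93.9, 84.6 and 81.8 CPM in PZH libraries, against 44.9, 46.3, 48.0 and 44.7 CPM in DMSO libraries. It rose 1.81-fold (log2 fold change 0.86 ± 0.063 (SE), adjusted p = 2.27e-11), with its lowest PZH value in replicate 1. EIF4EBP2 stood at 84.3, 81.6, 82.0 and 79.0 CPM in PZH libraries, against 157, 163, 166 and 157 CPM in DMSO libraries. It fell 1.97-fold (log2 fold change -0.98 ± 0.044 (SE), adjusted p = 2.99e-15). The log2 ratio of EIF4EBP2 to EIF4EBP1 was 0.22, -0.20, -0.044 and -0.050 in PZH libraries, against 1.81, 1.81, 1.79 and 1.81 in DMSO libraries, 3.54 times lower in PZH. The ratio of EIF4EBP1 to its target EIF4E was 2.18 times higher in PZH (difference 1.13 ± 0.083; exact permutation p = 0.0286, adjusted p = 0.0308 for both ratios). EIF4ENIF1, which encodes the eIF4E transporter 4E-T, was lower (-0.23, adjusted p = 0.00236), and the cap-binding paralogue EIF4E3 was higher (0.66, adjusted p = 1.19e-07), while EIF4E2 was not called (-0.065, adjusted p = 0.264) but was lower without scaling factors (-0.33, adjusted p = 9.32e-06).

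The helicase genes of the DEAD-box eIF4A family differed in direction. EIF4A3, the subunit of the exon junction complex, was the lowest of the eIF4 genes. It stood at 118, 124, 123 and 123 CPM in PZH libraries, against 257, 262, 251 and 265 CPM in DMSO libraries, 2.12-fold lower (log2 fold change -1.08 ± 0.043 (SE), adjusted p = 2.8e-16). EIF4A2, a helicase of eIF4F that also works with the deadenylase complex, rose (0.48, adjusted p = 1.18e-08). The helicase cofactors EIF4B and EIF4H stood at 0.19, adjusted p = 0.00334 and 0.0058, adjusted p = 0.911. Without scaling factors EIF4B had -0.069, adjusted p = 0.159, and EIF4H was called lower (-0.25, adjusted p = 3.87e-06).

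For the main helicase EIF4A1 the value is uncertain. It held 77, 72, 72 and 72 counts in PZH libraries, against 36, 49, 47 and 55 counts in DMSO libraries, a called rise (log2 fold change 0.98 ± 0.18 (SE), adjusted p = 4.15e-05). The rows of its 6 pseudogene copies held 281 to 344 counts in PZH libraries and 523 to 591 in DMSO libraries, or 390.3 to 478% and 951 to 1606% of the counts of the gene. With the copies summed into it, EIF4A1 was called lower (log2 fold change -0.31, adjusted p = 0.000304), an alternative chosen after the values were seen. In GENCODE release 29, 48.6% of its exonic bases lie under exons of other genes on the same strand. How reads shared between genes were counted is unknown here. Both ratios over EIF4A1 carry the same doubt: EIF4A2 to EIF4A1 was 1.44 times lower and EIF4A3 to EIF4A1 4.22 times lower in PZH (exact permutation p = 0.0286, adjusted p = 0.0308 for each).

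eIF5A, the hypusine-bearing factor that helps the ribosome past stalling sequences such as runs of proline, was lower in all of its genes. EIF5A stood at 329, 363, 358 and 341 CPM in PZH libraries, against 819, 824, 808 and 852 CPM in DMSO libraries. It fell 2.37-fold (log2 fold change -1.25 ± 0.049 (SE), adjusted p = 1.94e-16), the steepest fall among the tested members, with PZH values of at most 363 CPM and DMSO values of at least 808 CPM. EIF5A2 stood at 18.99, 15.9, 20.03 and 18.6 CPM in PZH libraries, against 23.0, 24.4, 24.8 and 22.2 CPM in DMSO libraries and fell 1.284-fold (log2 fold change -0.36 ± 0.081 (SE), adjusted p = 0.000325). EIF5AL1, an intronless copy of EIF5A, fell 2.32-fold, but it may take reads from its parent, so it is not separate evidence. The log2 ratio of EIF5A2 to EIF5A was -4.11, -4.51, -4.16 and -4.19 in PZH libraries, against -5.15, -5.07, -5.02 and -5.26 in DMSO libraries, 1.85 times higher in PZH (exact permutation p = 0.0286, adjusted p = 0.0308).

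The canonical elongation factors rose. EEF1A1, which brings aminoacyl-tRNA to the ribosome, stood at 28614, 33481, 28520.4 and 29873 CPM in PZH libraries, against 11369, 11725, 11106 and 11159 CPM in DMSO libraries. It was 2.66-fold higher (log2 fold change 1.41 ± 0.064 (SE), adjusted p = 3.09e-15). The 25 rows of its pseudogene copies held 26570 to 31969 counts in PZH libraries and 10827 to 11807 in DMSO libraries, which was 5.38 to 5.66% and 4.63 to 4.76% of the counts of EEF1A1 itself. EEF2, the translocase, stood at 5329, 6284, 6289.6 and 6324 CPM in PZH libraries, against 2995, 3150.3, 3183 and 3165 CPM in DMSO libraries. It rose 1.94-fold (log2 fold change 0.96 ± 0.061 (SE), adjusted p = 1.54e-12), with PZH replicate 1 well below the other PZH libraries and still above every DMSO library.

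Genes of the exchange subunits were also higher, with smaller log2 fold changes, and EEF1A2 was lower. EEF1B2, the catalytic exchange subunit, had 774 ± 113 CPM in PZH and 478 ± 21.0 CPM in DMSO, log2 fold change 0.70, adjusted p = 8.62e-09. EEF1D, another exchange subunit, was at 0.34, adjusted p = 4.03e-07, against 0.077, adjusted p = 0.109 without scaling factors. EEF1A2, a paralogue otherwise known from neurons and muscle, stood at 375, 423, 447 and 451 CPM in PZH libraries, against 502, 489, 502 and 489 CPM in DMSO libraries (log2 fold change -0.23 ± 0.054 (SE), adjusted p = 0.000658). With the GC trend removed EEF1A2 was called higher instead (0.13, adjusted p = 0.0338), so its direction depends on that correction. Relative to EEF1A1 it was 3.11 times lower in PZH, with log2 ratios of -6.25, -6.31, -5.995 and -6.05 in PZH libraries, against -4.50, -4.58, -4.47 and -4.51 in DMSO libraries (exact permutation p = 0.0286, adjusted p = 0.0308).

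Termination factors and poly(A)-binding proteins each had one gene up and one down. ETF1, the gene of eRF1 that reads the stop codon, stood at 444, 461, 452 and 471 CPM in PZH libraries, against 322, 321, 317 and 319 CPM in DMSO libraries. It rose 1.43-fold (log2 fold change 0.52 ± 0.044 (SE), adjusted p = 3.18e-10). Its partner GTPase gene GSPT1 (eRF3a) stood at 171, 209.8, 185 and 208 CPM in PZH libraries, against 217, 230.1, 227 and 221 CPM in DMSO libraries. It fell 1.16-fold (log2 fold change -0.21 ± 0.056 (SE), adjusted p = 0.00181), and the ratio of GSPT1 to ETF1 was 1.66 times lower in PZH (exact permutation p = 0.0286, adjusted p = 0.0308). PABPC1, the main cytoplasmic poly(A)-binding protein, stood at 3299, 3636, 3569 and 3838 CPM in PZH libraries, against 2598, 2683, 2799 and 2748 CPM in DMSO libraries. It was 1.32-fold higher (log2 fold change 0.41 ± 0.056 (SE), adjusted p = 7.66e-07). PABPC4, its inducible relative, stood at 255, 257, 274 and 276 CPM in PZH libraries, against 322, 319.9, 329 and 340.4 CPM in DMSO libraries, 1.24-fold lower (log2 fold change -0.31 ± 0.046 (SE), adjusted p = 2.78e-06), and the ratio of PABPC4 to PABPC1 was 1.64 times lower in PZH (exact permutation p = 0.0286, adjusted p = 0.0308).

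**Figure D4:**
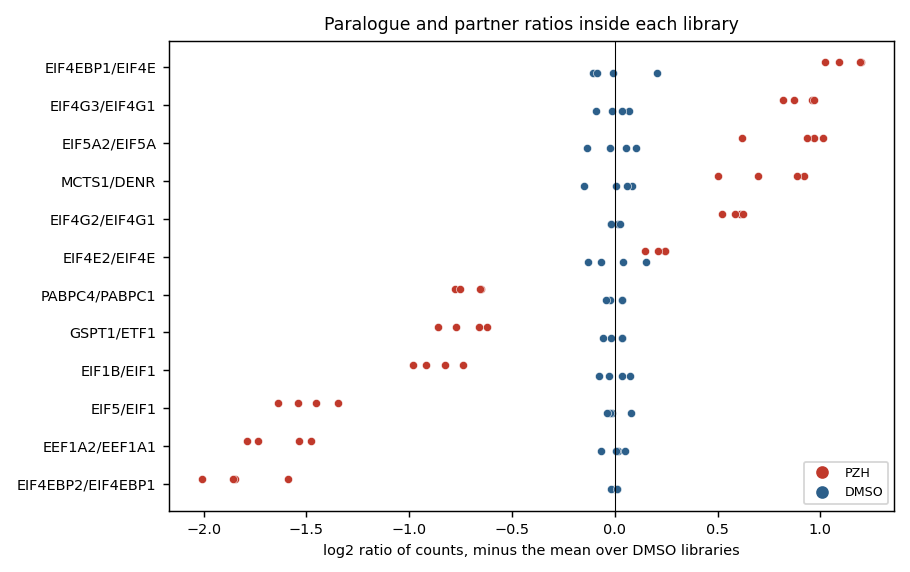
Log2 ratio of the counts of pairs of members in each library, minus the mean over DMSO libraries (horizontal axis; PZH red, DMSO blue), for the 12 ratios that do not use EIF4A1. The groups are apart for all pairs but EIF4E2/EIF4E; EIF4EBP2/EIF4EBP1 lies farthest left at a difference of -1.83 and EIF4EBP1/EIF4E farthest right at 1.13.

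Transcript starts were then compared for the pyrimidine tract. Sequences were taken from the RefSeq promoter table (GRCh38.p14) for 48 tested members other than EIF1AY, and a pyrimidine start was scored where any annotated start was a C followed by at least 4 bases that were each C or T. By this rule 13 of 48 members (27.1%) had such a start, against 7.27% of the 10318 tested genes with a promoter. Below are the starts of 6 of them, shown because they include both elongation factors, an exchange subunit, eIF3 genes of both directions and EIF2A. Each runs from 10 bases before the annotated start to its base 20, with the pyrimidine run from the start in capitals.
EEF1A1 (chr6:73521013-73521042, - strand): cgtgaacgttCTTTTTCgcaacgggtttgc
EEF2 (chr19:3985444-3985473, - strand): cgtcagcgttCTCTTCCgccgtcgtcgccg
EEF1B2 (chr2:206159885-206159914, + strand): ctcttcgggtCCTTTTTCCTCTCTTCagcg
EIF2A (chr3:150546777-150546806, + strand): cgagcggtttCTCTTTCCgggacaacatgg
EIF3M (chr11:32583821-32583850, + strand): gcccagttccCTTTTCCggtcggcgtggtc
EIF3K (chr19:38619178-38619207, + strand): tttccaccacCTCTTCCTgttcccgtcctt

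Of the 13 members with a pyrimidine start, 9 were higher (EEF1A1, EIF2A, EEF2, EIF3M, EEF1B2, EIF3D, EIF3F, EIF4A2 and EIF4B), 3 were lower (EIF2S3, EIF3K and EIF2D) and EIF2S3B was not called, with a median log2 fold change of 0.52. Of the other 35 scored members 15 were higher and 15 lower, with a median of 0.0058. Left unscored, with no promoter entry used, were EIF2S2, EIF3A, EIF3E, EIF3G, EIF3H, EIF3L, EIF4EBP1, EEF1D and PABPC1, all called higher. EIF3CL, EEF1A2 and PABPC4, called lower, were not scored either. Over all tested genes with a pyrimidine start 44.1% were higher and 40.5% lower (median 0.034), and over those without one 39.7% and 43.2% (median -0.053). EIF1, EIF1B, EIF2S2 and EIF5, which each rose at least 2-fold, are not in this group; for EIF2S2 no promoter entry was used. The motif TGATGNAA, sought on both strands from 250 bases before to 50 after each start as the core of the element bound by C/EBP and ATF4 dimers, was found for 1 of 48 members (2.08%), EIF4E3, against 2.68% of tested genes. A match is a description of these letters only.

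**Figure D5:**
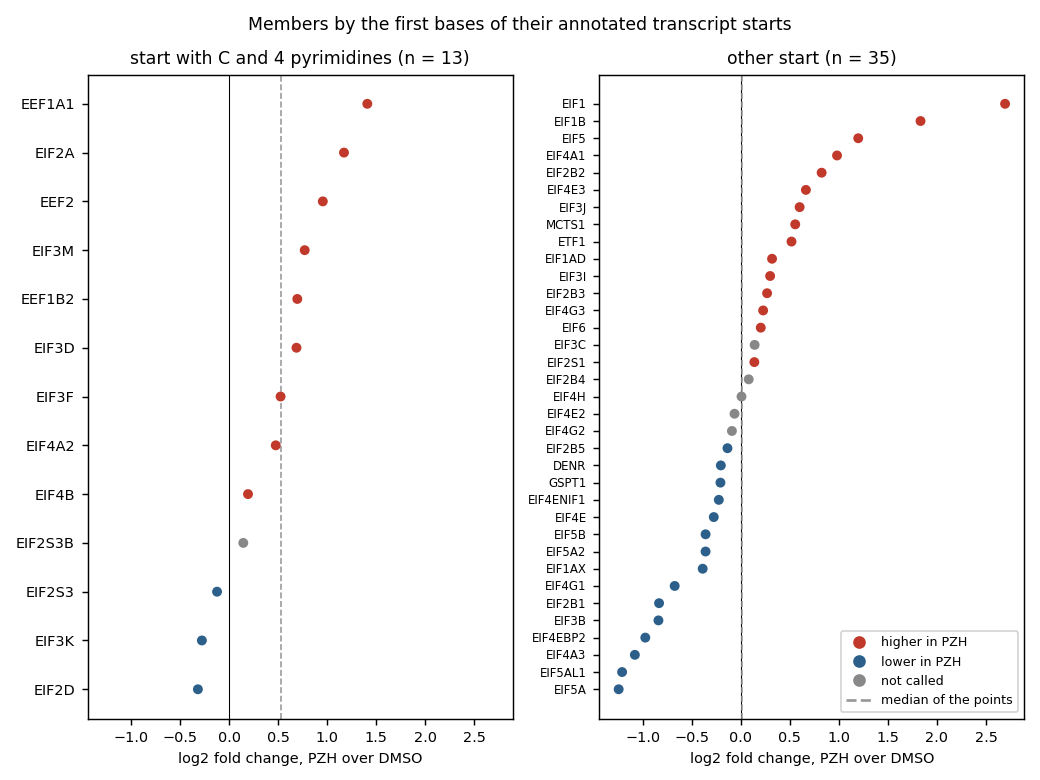
Log2 fold change of the 48 scored members (horizontal axis, PZH over DMSO) with a pyrimidine start (left panel) and without one (right panel). Points are coloured by call, and dashed lines are medians of the points. The left panel centres on 0.52 with 9 of 13 points called higher, the right panel on 0.0058 with 15 of 35 called in each direction.

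Genes that act on these factors were also divided. Of 18 tested enzymes that modify translation factors, 5 were higher and 9 lower (4 and 13 without scaling factors). Among all genes tested, 39.3% were higher and 40.9% lower (29.8% and 51.1% without scaling factors). EEF2K, the kinase that inhibits eEF2, was at 22.0 ± 2.42 CPM in PZH and 48.6 ± 1.59 CPM in DMSO (log2 fold change -1.14, adjusted p = 7.45e-13). METTL13, which methylates eEF1A, was at 33.8 ± 3.76 CPM in PZH and 65.2 ± 1.78 CPM in DMSO (log2 fold change -0.95, adjusted p = 5.6e-12), and DPH3, needed for the diphthamide modification of eEF2, at 62.3 ± 0.922 CPM in PZH and 22.9 ± 1.277 CPM in DMSO (log2 fold change 1.45, adjusted p = 2.78e-16).

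Of 20 genes of mTORC1 signalling and other control around eIF4F, 7 were higher and 10 lower (5 and 13 without scaling factors). The 10 lower genes included MTOR (log2 fold change -0.68, adjusted p = 4.16e-11), RPTOR (-0.67, adjusted p = 2.31e-09) and MLST8 (-1.02, adjusted p = 2.84e-12). The 3 genes with the smallest p, given next, were all higher. DDIT4, an inhibitor of mTORC1, was at 685 ± 80.01 CPM in PZH and 47.7 ± 3.47 CPM in DMSO (log2 fold change 3.84, adjusted p = 1.41e-21). PDCD4, which blocks the eIF4A helicase, was at 102 ± 6.39 CPM in PZH and 43.3 ± 1.86 CPM in DMSO (log2 fold change 1.24, adjusted p = 1.53e-15), and RHEB, the GTPase that activates mTORC1, at 149 ± 12.01 CPM in PZH and 80.8 ± 4.08 CPM in DMSO (log2 fold change 0.89, adjusted p = 1.26e-12).

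Of 17 tested genes of ribosome recycling, rescue, special elongation and helicases, 7 were higher and 6 lower (5 and 11 without scaling factors). GTPBP2, a GTPase of ribosome rescue, was at 365 ± 2.84 CPM in PZH and 32.6 ± 1.00 CPM in DMSO (log2 fold change 3.48, adjusted p = 7.3e-24). LTN1, the ligase that marks chains on stalled ribosomes, was at 65.4 ± 9.68 CPM in PZH and 15.7 ± 1.46 CPM in DMSO (log2 fold change 2.05, adjusted p = 1.75e-15), and PELO, which opens stalled ribosomes, at 85.8 ± 4.11 CPM in PZH and 38.4 ± 0.999 CPM in DMSO (log2 fold change 1.16, adjusted p = 2.08e-15) (mean ± SD, n = 4 each). Counts for these 3 lists stand beside the 39.3% and 40.9% of all genes tested, and beside 29.8% and 51.1% without scaling factors.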

How the data were processed

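Poly(A) RNA of HCT116 cells was sequenced from Trizol-extracted total RNA with a NEBNext Ultra library kit, per the labels' protocols. The authors deposited 1 table of raw counts per gene symbol (35394 rows, 8 libraries, 0 columns of no sample). Tools listed, with no role, in the submitters' processing notes are StringTie 1.3.3b, DESeq 1.28.0, HISAT2 2.1.0 and FastQC 0.11.5. The genome build, gene annotation and use of strand are not stated in any source used. Without knowledge of strand, members that overlap antisense genes are uncertain; the largest such overlap was 34.0% of the exonic bases of EEF1D. 25 rows carry dates as names and were kept unnamed.

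Genes were filtered with filterByExpr (minimum count 10, minimum total 15), scaled with TMM and tested with edgeR 4.0.16 (glmQLFit and glmQLFTest, group only, R 4.3.3), two-sided, with Benjamini-Hochberg adjustment over 15006 genes. The step was tested on simulated data in which few genes changed, equally up and down. Such data cannot test the scaling where most genes differ. Standard errors equal the size of the log2 fold change over the root of the F statistic. CPM are TMM-scaled. Ratios used 0.5 added to each count and exact two-sided permutation over 70 assignments. Alternatives are in the closing section; DESeq2 1.42.0 was one. Members and lists were chosen with earlier results of these data known; the genes given by library were the highest and lowest of each complex plus index genes, with EIF1B, EIF3C, EIF3CL and EIF4EBP2 added after their values were seen. Other genes named were the 3 with the smallest p of each list, with MTOR, RPTOR and MLST8 added after their values were seen. No 2 libraries of a group agreed within counting noise: their chi-square over degrees of freedom was 4.03 to 12.3 in PZH and 2.39 to 2.81 in DMSO. Floors cover counting error only.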

Additional observations from a re-analysis of the deposited data

Results flagged for a closer look

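Single libraries stood apart from the other 3 of their group in 9 of 148 groups of 4 values, where chance flags about 5% of groups. PZH replicate 1 was the lowest for EEF2 (5329 CPM, others 6284 to 6324), EIF3F (269 CPM, others 301 to 306), EIF4A3 (118 CPM, others 123 to 124) and EIF2D (43.4 CPM, others 48.9 to 49.3). PZH replicate 2 was the lowest for EIF2S2 (402 CPM, others 411 to 412) and EIF4A1 (4.25 CPM, others 4.34 to 4.36), and the highest for EIF4E2 (69.7 CPM, others 60.8 to 61.5) and EIF3CL (8.79 CPM, others 7.18 to 7.36). DMSO replicate 2 was the highest for EEF1B2 (509 CPM, others 466 to 471).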

How the results depend on the processing

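Of 60 members with a value, 40 kept their direction and call under all 16 alternatives in which they had one (EEF1A1 and EEF2 had none without the 10 most abundant genes, which include them), and another 10 changed only without scaling factors. Counts of members called stayed at 24 to 34 higher and 18 to 26 lower. Without scaling factors 9 members turned sign: EIF2B4 (-0.18), EIF2S1 (-0.12), EIF2S3B (-0.12), EIF3A (-0.0044), EIF3C (-0.12), EIF4B (-0.069), EIF4G3 (-0.033), EIF4H (-0.25) and EIF6 (-0.058). EEF1A2 turned to 0.13 with the GC trend removed (GC was known for 99.1% of tested genes), and EIF4A1 to -0.31 with pseudogene copies summed, an alternative chosen after seeing the data. EIF4H, at 0.0058, lay at -0.0081 without the filter and between -0.0018 and 0.049 on leaving out each library. Without the 10 most abundant genes in totals, members held 2.24% of counts in PZH and 1.98% in DMSO, since EEF1A1 and EEF2 are among the 10. Of 14 ratios 13 passed, and 12 to 14 on leaving out each library. No ratio was computed with the GC trend removed. The share that would pass among ratios of other gene pairs was not computed. For single genes, the groups did not overlap in 75.0% of those tested. The replicate block changed no call of a member. Same-numbered libraries did not deviate together (correlations 0.00074 to 0.011), and with ratios paired by number 0 of 14 passed, as 16 sign flips cannot give less than 0.125. Depth limits EIF4E1B and EIF4EBP3, which were not tested.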

Other observations

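PZH replicate 1 held the lowest PZH value for 33 of 60 members (55.0%), while it was the lowest PZH library for 26.0% of all genes tested. DMSO replicate 1 was the lowest DMSO library for 25 of 60 members (41.7%), against 27.7% of all genes tested. These shares were looked for after the values were seen and were not tested.

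The pseudogene row EEF1A1P11, which is not a member, held 19, 7, 19 and 460 counts in PZH libraries and 6, 6, 1 and 8 counts in DMSO libraries. Its 460 counts stand in PZH replicate 4 alone, where EEF1A1 itself was within the range of the other PZH libraries. EEF1A1P5, another copy, held 24151 to 28829 counts in PZH libraries and 10227 to 11048 in DMSO libraries. The rows of pseudogene copies of EIF5A held 73 to 121 counts in PZH libraries and 272 to 301 in DMSO libraries.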
